A study of Homo sapiens with 18 samples.

Results

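The complement genes followed in HAP1 cells were C3, C1R, C1S, SERPING1, CD46, CD55, CD59 and CFI. They are 8 of the 20329 genes counted in 18 RNA-seq samples, and all 8 were found by symbol. The list was put together with the levels of these genes in the 6 groups and with earlier comparisons of the same samples in view, so the levels and differences of the 8 genes are given as descriptions, without p-values. Where one of the 8 is said to pass a threshold, or to keep or lose a call, that too is a description and no support. HAP1 is a near-haploid human line derived from the chronic myeloid leukaemia line KBM-7. Control cells were HAP1 wild-type cells (WT in the labels), sequenced as control A and control B. *ΔWAPL* cells carry a CRISPR-made disruption of WAPL, the factor that releases cohesin from chromatin, by insertion of a blasticidin cassette, and came as clones 3.3 and 1.14. *ΔSCC4* cells carry a puromycin cassette in SCC4 (gene symbol MAU2), a subunit of the cohesin loader, and *ΔWAPL*/*ΔSCC4* cells were made by disrupting SCC4 in *ΔWAPL* cells, which the labels give as clone 3.3. Each group had 3 samples, and each *ΔWAPL* group is 1 clone. File labels place control A, *ΔWAPL* 3.3, *ΔSCC4* and *ΔWAPL*/*ΔSCC4* in one sequencing set (set A) and control B and *ΔWAPL* 1.14 in the other (set B), so each deletion was compared with the control of its own set. Nothing in the labels says that the samples of a group were separate cultures, so the spread between them may be technical.

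Complement is a cascade of blood proteases that marks cells for clearance and lysis. In the classical pathway C1q activates the proteases C1r and C1s, the pathways meet at the cleavage of C3, and C3b deposited on a surface leads to the membrane attack complex. Host cells are protected by soluble inhibitors, such as C1 inhibitor and factor I, and by the membrane proteins CD46, CD55 and CD59. Most circulating complement is made in the liver, but many cultured cells transcribe some of these genes.

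The total count on genes was between 10007646 and 20711127 per sample, with a median of 16177867.5. As a check of the labels, MAU2 was between 0.509 and 1.04 CPM (gene counts scaled to a common library size and normalized for library composition) in the 6 samples labelled with an SCC4 deletion and between 52.1 and 72.7 CPM in all others. WAPL was between 38.0 and 50.2 CPM in the 9 samples labelled with a WAPL deletion and between 68.0 and 131.1 CPM in the others, so that its reads were fewer but not gone. HAP1 cells had none of 6 haematopoietic markers (PTPRC, CD34, SPI1, GATA1, CD33 and ITGAL) at a median of 1 CPM, and none of 6 hepatocyte markers (ALB, APOA1, TTR, AFP, SERPINA1 and FGB), though the haematopoietic markers summed to between 1.23 and 2.08 CPM in control B, 0.06 and 0.36 CPM in *ΔWAPL* 1.14 and at most 0.65 CPM in set A. Of 6 fibroblast and mesenchymal markers 3 reached that median (VIM, FN1 and COL1A1), and COL1A2, THY1 and PDGFRB did not. Of 5 macrophage markers CD68 alone reached that median, with at most 1.83 CPM in a sample. The summed hepatocyte markers were between 1.3 and 2.14 CPM in *ΔSCC4* and between 0.14 and 1.0 CPM in the other groups, and their part in the results was not tested. Epithelial KRT8 and its list moved with the double deletion, whose 4 epithelial markers summed to between 107.4 and 130.5 CPM against 41.6 to 81.9 CPM elsewhere, whereas its 6 fibroblast markers summed to 317.3 to 356.6 CPM against 438.2 to 736.2. In *ΔSCC4* the fusion partners BCR and ABL1 summed to between 80.4 and 92.2 CPM against 34.3 to 54.5 CPM elsewhere. The part of these in the results was not tested either.

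Sequences upstream of the transcribed part are shown for C1R, CD55 and CD46. C1R and CD55 were lower in *ΔSCC4*, and CD46, 365.2 kb from CD55, is the comparison. RefSeq windows of 300 bases (250 before to 50 after the annotated start, GRCh38.p14) were at hand for 5 of the 8 genes, in 10 windows. The windows were searched on both strands for 5 motifs, and a match is in capitals. The letters searched were TATAAA for a TATA box and CCAAT for a CCAAT box. They were GGGCGG for a GC box, TTCNNNGAA for a GAS element bound by STAT factors, and TGANTCA for an AP-1 site. No match overlaps another in the windows shown. C1R has 2 annotated windows, at chr12:7092396-7092695 and chr12:7091844-7092143, both on the minus strand. The CD55 window is chr1:207321428-207321727, and the first of 2 overlapping CD46 windows is chr1:207751788-207752087, both on the plus strand.
C1R, upstream start: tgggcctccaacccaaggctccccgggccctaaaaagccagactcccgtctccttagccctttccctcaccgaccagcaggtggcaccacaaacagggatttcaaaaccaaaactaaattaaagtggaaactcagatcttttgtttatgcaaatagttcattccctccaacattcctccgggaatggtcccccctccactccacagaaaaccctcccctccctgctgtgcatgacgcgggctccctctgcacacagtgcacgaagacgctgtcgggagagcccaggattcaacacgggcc
C1R, downstream start: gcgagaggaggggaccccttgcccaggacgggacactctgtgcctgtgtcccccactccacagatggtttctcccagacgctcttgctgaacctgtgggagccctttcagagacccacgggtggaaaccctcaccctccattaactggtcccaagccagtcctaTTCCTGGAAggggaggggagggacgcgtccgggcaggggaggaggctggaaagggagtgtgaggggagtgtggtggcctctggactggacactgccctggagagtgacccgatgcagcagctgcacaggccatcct
CD55: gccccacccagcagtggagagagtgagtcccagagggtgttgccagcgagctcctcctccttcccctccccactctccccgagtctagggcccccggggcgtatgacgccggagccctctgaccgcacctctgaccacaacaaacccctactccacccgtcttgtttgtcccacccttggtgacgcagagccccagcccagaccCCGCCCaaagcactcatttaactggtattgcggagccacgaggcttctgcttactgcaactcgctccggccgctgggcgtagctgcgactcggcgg
CD46: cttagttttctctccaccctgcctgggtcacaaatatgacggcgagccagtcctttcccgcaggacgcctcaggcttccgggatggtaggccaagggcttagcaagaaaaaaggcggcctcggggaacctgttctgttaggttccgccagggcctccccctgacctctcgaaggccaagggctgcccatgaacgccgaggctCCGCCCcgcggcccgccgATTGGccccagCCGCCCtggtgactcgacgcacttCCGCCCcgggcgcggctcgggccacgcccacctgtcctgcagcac
The upstream C1R window has none of the 5 motifs, and the downstream one has a single GAS match, TTCCTGGAA, at -86 from the start. CD55 has 1 GC box, read as CCGCCC on the gene's strand, at -46. CD46 has 3 GC boxes, at -48, -19 and 6, and 1 CCAAT box, at -30. Counted from the start of the second CD46 window, chr1:207751804-207752103, the same matches lie at -64, -35, -11 and -46. Windows of CD59 and CFI were searched too and are not shown. CD59, whose level varied least, also has a GAS match, TTCTCAGAA, at -128 or -184 depending on the annotated start. Its windows also hold GC and CCAAT boxes and, in one of them, 3 AP-1 sites. CFI has a CCAAT box at -199. Of all 35116 RefSeq windows of this length, 45.0% hold a GC box, 34.6% a CCAAT box, 11.5% a TATA box, 7.7% a GAS element and 7.7% an AP-1 site, so that the matches in CD55 and CD46 are common ones. The CpG counts were 10 and 8 in the C1R windows, 19 in CD55 and 25 in CD46, beside a median of 14 over all windows. A match is a description of these letters only, and no binding was measured here.

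The 8 genes differed widely in level. Per kilobase of exon, the mean over the 18 samples was 11.6 CPM for CD59, 11.5 for C1R, 6.425 for CD46 and 3.91 for CD55. It was 0.279 CPM per kilobase for C3, 0.159 for C1S, 0.04 for SERPING1 and 0.011 for CFI. Neighbours in this order overlapped over the samples with a single break, between CD55 (lowest sample 2.19 CPM per kilobase) and C3 (highest 0.652). C1r and C1s act as a pair in one complex, but their genes stood on opposite sides of that break in every sample. Exon length here is that of all annotated exons of a gene merged, so the order per kilobase depends on the annotation. In CPM without length, CD46 (mean 99.6) was above C1R (53.8). Of the 12976 genes kept over all samples, CD59 ranked in the top 14.9% by mean CPM, CD46 19.6%, C1R 36.2%, CD55 45.1%, C3 86.3% and C1S 92.0%.

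**Figure D1:**
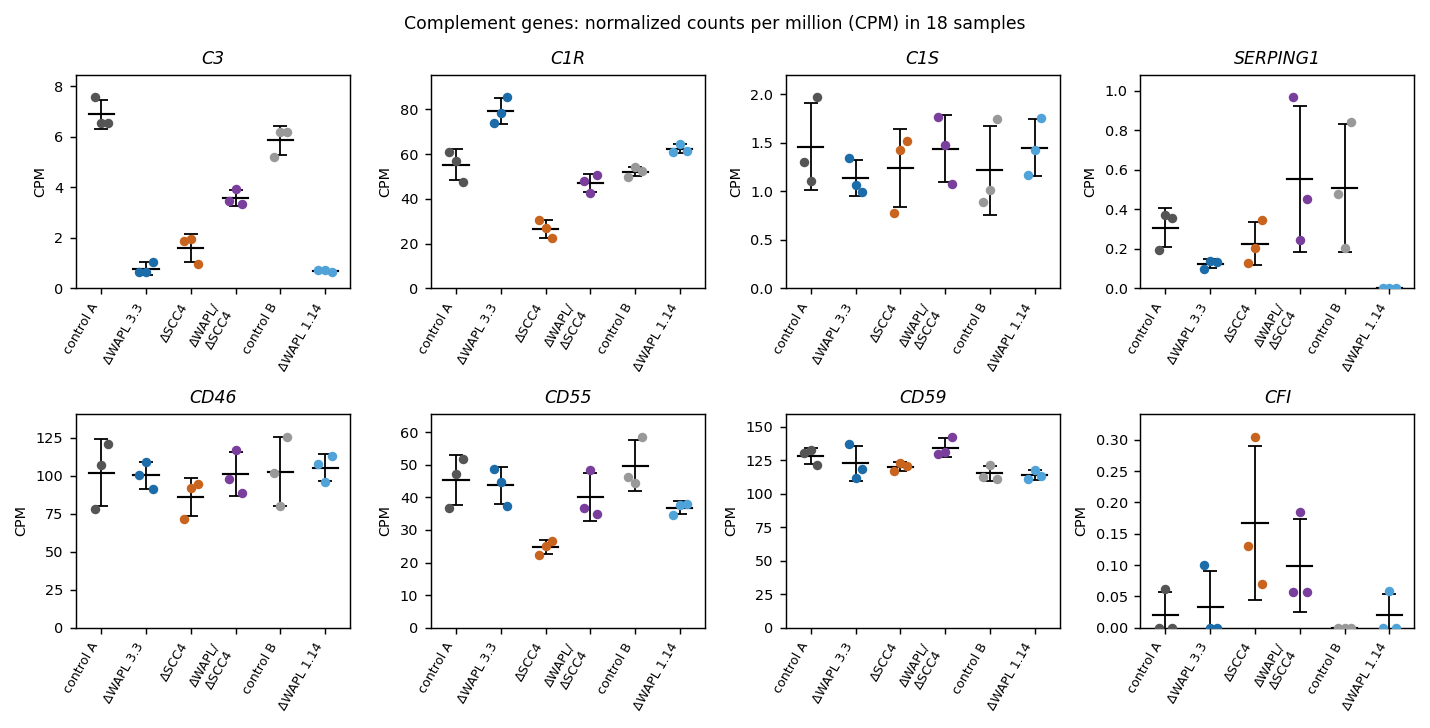
Normalized CPM (linear axis from 0, a scale of its own for each gene) of the 8 complement genes in 6 groups of 3 samples. Points are samples, horizontal bars group means and whiskers 1 SD. C3 sits between 6.53 and 7.55 CPM in control A and between 0.637 and 1.06 CPM in *ΔWAPL* 3.3, and CD59 between 110.8 and 142.6 CPM over all samples.

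Of the 6 genes kept by the low-count filter, C3, the protein at which the pathways converge, differed most (ENSG00000125730, chr19:6677715-6730573 on the minus strand of GRCh37). Its level was 7.55, 6.53 and 6.55 CPM in control A and 5.19, 6.18 and 6.19 CPM in control B. In *ΔWAPL* 3.3 it was 0.65, 0.64 and 1.06 CPM, and in *ΔWAPL* 1.14 it was 0.74, 0.71 and 0.66 CPM. All 6 *ΔWAPL* samples were far below all 6 control samples. In *ΔSCC4* C3 was at 1.89, 1.93 and 0.97 CPM, and in *ΔWAPL*/*ΔSCC4* at 3.47, 3.93 and 3.34 CPM. The double deletion thus lay between the controls and each single deletion, without overlap on either side.

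These values rest on few reads. C3 had between 106 and 116 reads per sample in control A, 9 to 16 in *ΔWAPL* 3.3, 11 to 14 in *ΔWAPL* 1.14, 14 to 29 in *ΔSCC4* and 59 to 64 in the double deletion. Pooled over its 3 samples, *ΔWAPL* 3.3 had 0.771 CPM (exact 95% Poisson interval 0.546 to 1.06, counting error only) and *ΔSCC4* had 1.56 CPM (1.2 to 2.0). The order of the group means was control A (6.88 ± 0.582 CPM, SD, n = 3), control B (5.85 ± 0.572), *ΔWAPL*/*ΔSCC4* (3.58 ± 0.313), *ΔSCC4* (1.59 ± 0.544), *ΔWAPL* 3.3 (0.782 ± 0.243) and *ΔWAPL* 1.14 (0.706 ± 0.04). The 2 *ΔWAPL* clones overlapped, and *ΔSCC4* overlapped *ΔWAPL* 3.3 through its replicate 3. In a bulk sample, fewer cells that express a gene and less of its RNA per cell cannot be told apart.

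In the fit across all genes (edgeR's quasi-likelihood test), C3 was 8.93-fold lower in *ΔWAPL* 3.3 than in control A, a log2 difference of -3.16 ± 0.245 (SE), and 8.24-fold lower in *ΔWAPL* 1.14 than in control B (-3.04 ± 0.155). It was the 49th lowest of 12489 fold changes in the first comparison and the 117th lowest of 12636 in the second. In *ΔSCC4* it was 4.39-fold lower than in control A (-2.13 ± 0.245, 104th lowest of 12503). In the double deletion it was 1.93-fold lower than in control A (-0.95 ± 0.155) and 4.59-fold higher than in *ΔWAPL* 3.3 (2.20 ± 0.242, 91st highest of 12544). All 5 differences passed an adjusted p threshold of 0.05, as they did in every alternative fit that gave a value and without any one sample. The share of all genes passing was 8.07% for *ΔWAPL* 3.3, 20.1% for *ΔWAPL* 1.14, 9.49% for *ΔSCC4*, 7.95% for the double deletion against control A and 10.6% for the double deletion against *ΔWAPL* 3.3. With the list chosen on these contrasts, nothing is read from those shares.

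The SCC4 deletion thus went with less C3 RNA in cells with WAPL and with more in *ΔWAPL* 3.3 cells. The difference between these log2 changes was 4.34 ± 0.34, the 61st highest of 12817 genes, of which 11.3% passed the threshold. The sum of the 2 single-deletion changes would be -5.29 on the log2 scale, and the double deletion was at -0.95. Between the *ΔWAPL* clones the log2 change of C3 differed by -0.10 ± 0.305 (95% interval -0.70 to 0.50), where 2.65% of all genes passed. Control B was -0.24 ± 0.148 from control A, a difference that did not pass the threshold, as 0.64% of all genes did, although the samples of the 2 controls did not overlap.

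**Figure D2:**
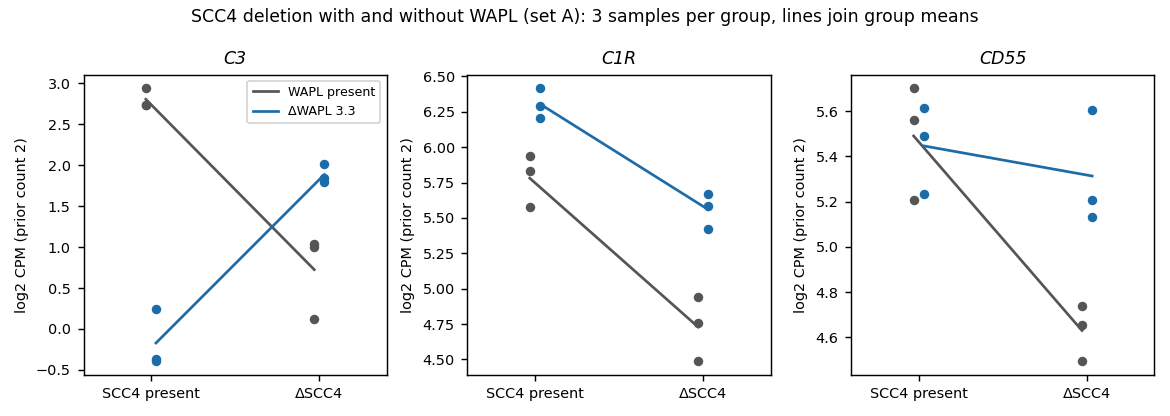
Log2 CPM (prior count 2) of C3, C1R and CD55 in the 4 groups of set A, with 3 points per group, lines through group means, and an axis that does not start at 0. The C3 lines cross, from a mean of 2.81 to 0.725 with WAPL present and from -0.172 to 1.89 in *ΔWAPL* 3.3, the C1R lines both go down, and the CD55 line goes down mainly with WAPL present.

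The classical-pathway proteases followed another pattern. C1R encodes C1r, the first protease of the C1 complex to be activated, and lies at chr12:7187513-7245203 (minus strand, GRCh37), 9.2 kb from C1S (chr12:7096351-7178336, plus strand). C1R was at 61.1, 56.9 and 47.5 CPM in control A and at 73.7, 78.4 and 85.3 CPM in *ΔWAPL* 3.3. In *ΔSCC4* it was at 30.6, 27.0 and 22.3 CPM, and in the double deletion at 47.9, 42.7 and 50.8 CPM. The *ΔSCC4* samples were below every other sample and the *ΔWAPL* 3.3 samples above every other one, whereas the double deletion overlapped control A. Set B had 49.8, 54.2 and 52.6 CPM in control B and 60.9, 64.7 and 61.6 CPM in *ΔWAPL* 1.14, again without overlap.

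C1R was 2.09-fold lower in *ΔSCC4* than in control A (log2 difference -1.06 ± 0.163) and 1.68-fold lower in the double deletion than in *ΔWAPL* 3.3 (-0.74 ± 0.121), and both passed the threshold in every fit. Its change with the SCC4 deletion was thus of one sign with and without WAPL, with a difference of 0.33 ± 0.196 that did not pass. In *ΔWAPL* 1.14 C1R was 1.19-fold higher (0.25 ± 0.061), a call lost in the fit over all 18 samples and without control B replicate 1 or without any one of the 3 *ΔWAPL* 1.14 samples. In *ΔWAPL* 3.3 it was 0.50 ± 0.155 higher on the log2 scale without passing, and it passed with DESeq2, with DESeq2's size factors, with no filter, in the fit over all 18 samples and without control A replicate 1. In the double deletion it was -0.23 ± 0.135 from control A, which did not pass.

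C1S, the protease that C1r activates and that cleaves C4 and C2, had few reads, between 12 and 33 per sample. It was at 1.3, 1.11 and 1.97 CPM in control A, at 1.35, 1.06 and 1.0 CPM in *ΔWAPL* 3.3 and at 0.78, 1.42 and 1.52 CPM in *ΔSCC4*. The double deletion had 1.76, 1.47 and 1.07 CPM, control B 0.889, 1.01 and 1.74 CPM and *ΔWAPL* 1.14 1.17, 1.42 and 1.75 CPM. All groups overlapped, and C1S did not pass in any comparison. The 95% intervals of its log2 differences were -0.93 to 0.20 for *ΔWAPL* 3.3, -0.38 to 0.79 for *ΔWAPL* 1.14 and -0.93 to 0.38 for *ΔSCC4*, so each interval holds a 1.5-fold difference in one direction.

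SERPING1 encodes C1 inhibitor, which inactivates C1r and C1s (chr11:57364860-57386644, plus strand, GRCh37). It had 3, 6 and 6 reads in control A, 2 in each sample of *ΔWAPL* 3.3, 2, 2 and 5 in *ΔSCC4*, and 17, 4 and 8 in the double deletion. In set B it had 7, 3 and 15 reads in control B and 0 in each sample of *ΔWAPL* 1.14. The low-count filter removed it from every main fit, and no value is given from the fits with no filter, which kept it. Pooled over its samples, *ΔWAPL* 1.14 was at least 9.22-fold lower than control B, with the 25 reads of control B taken as measured and 3 counts over the group as the limit that a count of 0 allows (0.0574 CPM). Replicate 3 held 15 of those 25 reads, and without it the bound was 5.91-fold. *ΔWAPL* 3.3 had 0.122 pooled CPM (exact 95% Poisson interval 0.0447 to 0.265) against 0.31 (0.174 to 0.511) in control A, and these intervals overlap.

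The membrane regulators were well covered. CD55, decay-accelerating factor, which dissociates the C3 convertases (chr1:207494864-207560149, plus strand, GRCh37), was at 36.9, 47.1 and 51.9 CPM in control A and at 22.4, 25.04 and 26.6 CPM in *ΔSCC4*. It was at 48.8, 44.8 and 37.5 CPM in *ΔWAPL* 3.3 and at 36.8, 48.5 and 34.9 CPM in the double deletion. The *ΔSCC4* samples were below every other sample, and the other 3 groups of set A overlapped. CD55 was at 46.4, 44.3 and 58.6 CPM in control B and at 34.4, 37.8 and 38.1 CPM in *ΔWAPL* 1.14, which did not overlap.

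CD55 was 1.85-fold lower in *ΔSCC4* (log2 difference -0.89 ± 0.16), which passed in every fit. In *ΔWAPL* 1.14 it was 1.36-fold lower (-0.44 ± 0.111), a call lost in the fit over all 18 samples and without control B replicate 1 or any one sample of *ΔWAPL* 1.14. It was -0.07 ± 0.16 in *ΔWAPL* 3.3, -0.18 ± 0.167 in the double deletion and -0.13 ± 0.147 between the double deletion and *ΔWAPL* 3.3, none of which passed. The change with the SCC4 deletion differed by 0.77 ± 0.222 between cells with WAPL and *ΔWAPL* 3.3 cells. That difference passed the threshold, but it was lost with the replicate number as a block (0.76) and without either of control A replicates 2 and 3, *ΔWAPL* 3.3 replicates 2 and 3, *ΔSCC4* replicates 1 and 2, and *ΔWAPL*/*ΔSCC4* replicates 1 and 2, with values between 0.61 and 0.90 over the samples left out.

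CD46, membrane cofactor protein, the cofactor with which factor I cuts C3b and C4b, lies 365.2 kb from CD55 (chr1:207925382-207968858, plus strand, GRCh37). It was at 77.9, 107.3 and 121.2 CPM in control A and at 71.4, 92.3 and 94.5 CPM in *ΔSCC4*. In both groups the sample numbered 1 was the lowest. The other groups had 100.8, 108.9 and 91.2 CPM (*ΔWAPL* 3.3), 97.8, 116.9 and 88.4 CPM (double deletion), 101.8, 80.3 and 125.8 CPM (control B) and 107.7, 95.8 and 113.0 CPM (*ΔWAPL* 1.14). All groups overlapped except *ΔSCC4* (at most 94.5 CPM) and *ΔWAPL* 1.14 (at least 95.8 CPM), which are of different sets. No difference of CD46 passed. The *ΔSCC4* difference from control A was -0.26 ± 0.18, and it passed only with the replicate number as a block (-0.25), a fit in which 5754 genes passed instead of 1186. Over the 18 samples, log2 CPM of CD46 and CD55 had a Pearson r of 0.67 (Spearman's rho 0.69), as a description of samples that share libraries and sets.

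CD59, protectin, which stops assembly of the membrane attack complex (chr11:33724556-33758025, minus strand, GRCh37), varied least. Its group means were 128.2 ± 6.08 CPM in control A, 122.7 ± 13.1 in *ΔWAPL* 3.3, 120.3 ± 3.3 in *ΔSCC4* and 134.4 ± 7.12 in the double deletion. In set B they were 115.2 ± 5.63 CPM in control B and 114.0 ± 3.61 in *ΔWAPL* 1.14. The lowest sample was at 110.8 CPM and the highest at 142.6 CPM. The 95% interval of its log2 difference was -0.35 to 0.19 in *ΔWAPL* 3.3, -0.14 to 0.10 in *ΔWAPL* 1.14 and -0.33 to 0.13 in *ΔSCC4*, and it passed in no fit.

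CFI encodes factor I, the protease that inactivates C3b with the help of CD46 (chr4:110652164-110723306, minus strand, GRCh37). It had 15 reads in all 18 samples together and at most 3 in one. *ΔSCC4* had 2, 3 and 1 reads, the double deletion 1, 3 and 1, *ΔWAPL* 3.3 2, 0 and 0, control A 0, 1 and 0, *ΔWAPL* 1.14 0, 1 and 0, and control B 0 in each sample. The filter removed it from every main fit, and no value is given from the fits with no filter. Its pooled level was 0.151 CPM in *ΔSCC4* (exact 95% Poisson interval 0.0555 to 0.329) and 0.0207 CPM in control A (5e-04 to 0.115), which overlap, and a difference was not detectable at this depth.

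**Figure D3:**
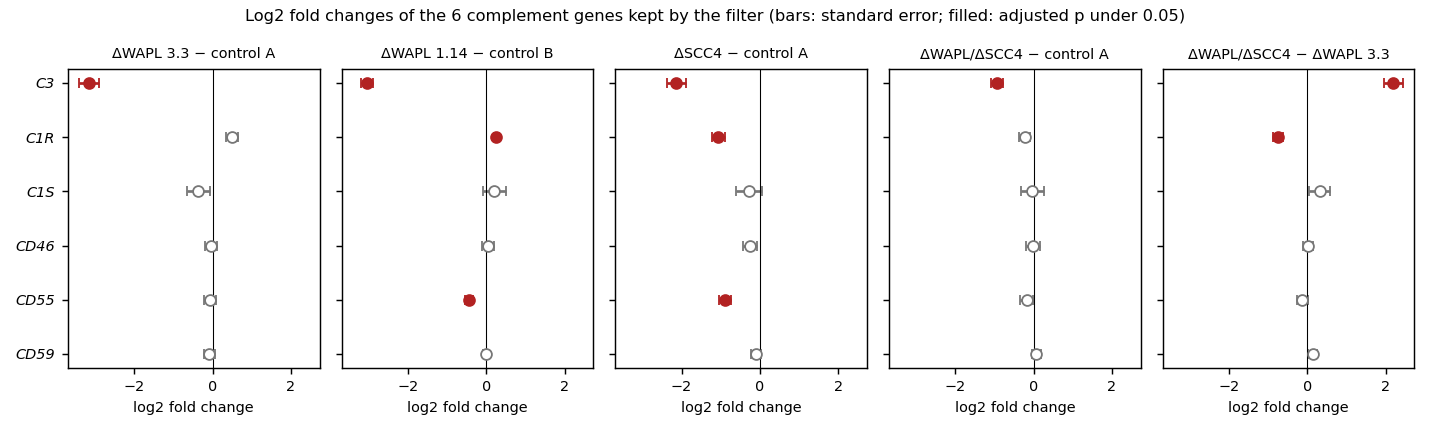
Log2 fold changes of the 6 complement genes that the low-count filter kept, in 5 comparisons on one axis. Points are estimates, bars standard errors, and filled red points passed an adjusted p of 0.05. C3 stands at -3.16 and -3.04 in the *ΔWAPL* clones and at 2.20 between the double deletion and *ΔWAPL* 3.3, and CD59 lies between -0.10 and 0.13 in all 5, with no filled point.

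All 6 genes kept by the filter met its minimum level (10 counts at the median library size) in every sample of both groups compared, and SERPING1 and CFI were not tested in the main fits. Of the 6, those that passed were C3 in *ΔWAPL* 3.3, C3, C1R and CD55 in *ΔWAPL* 1.14, C3, C1R and CD55 in *ΔSCC4*, C3 in the double deletion against control A, and C3 and C1R in the double deletion against *ΔWAPL* 3.3. Of all genes, 8.07%, 20.1%, 9.49%, 7.95% and 10.6% passed in these comparisons, in the same order. The median log2 difference of the 6 was -0.07 in *ΔWAPL* 3.3, 0.01 in *ΔWAPL* 1.14 and -0.58 in *ΔSCC4*. It was -0.11 in the double deletion against control A. As the genes were chosen with these comparisons in view, nothing is read from these counts or medians. No gene among the 6 passed between the 2 controls.

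The genes nearest to C3 on chromosome 19 were set beside it. The 3 nearest tested genes at lower coordinates were CD70, TNFSF9 and TUBB4A, 73.6, 141.8 and 174.9 kb away, and those at higher coordinates GPR108, whose annotation overlaps C3 by 0.6 kb on the same strand, TRIP10 at 7.4 kb and SH2D3A at 21.6 kb. In *ΔWAPL* 3.3 none of the 6 passed, with log2 differences between -0.29 and 0.13. In *ΔWAPL* 1.14 CD70 fell by 0.79 on the log2 scale (adjusted p = 4.69e-03) and TUBB4A fell by 0.56 (adjusted p = 1.38e-03). In *ΔSCC4* SH2D3A fell by 0.99 on the log2 scale (adjusted p = 2.06e-02), and in the double deletion it rose by 0.94 (adjusted p = 1.70e-03). In the double deletion against *ΔWAPL* 3.3, where C3 was higher, SH2D3A rose by 0.81 (adjusted p = 5.88e-03) and CD70 by 0.48 (adjusted p = 2.07e-02, lost without *ΔWAPL* 3.3 replicate 1 or 2 or *ΔWAPL*/*ΔSCC4* replicate 1 or 3), and none of the 6 fell. Reads in the overlap of C3 and GPR108 cannot be told apart, and GPR108 was between -0.26 and 0.19 in the 4 comparisons with a control.

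**Figure D4:**
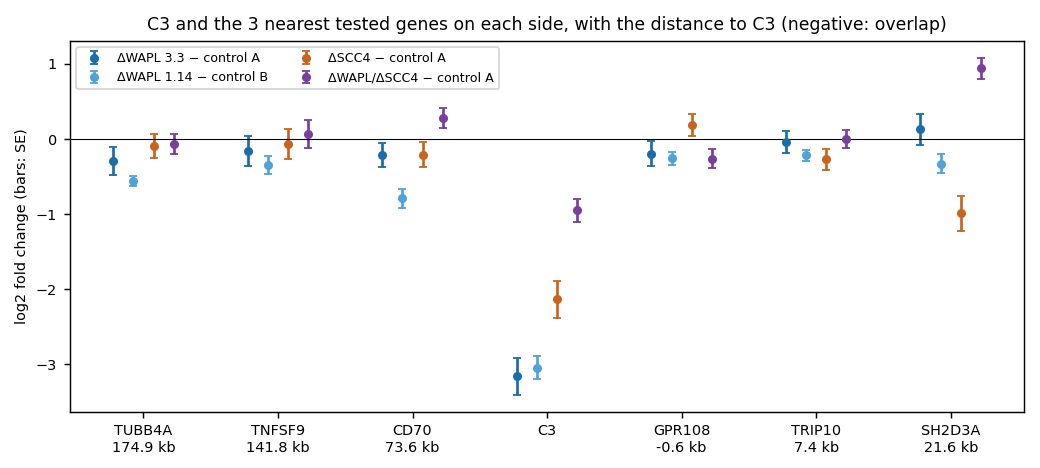
Log2 fold changes (points, with standard errors) of C3 and the 3 nearest tested genes on each side, ordered along chromosome 19 and labelled with their distance to C3, in 4 comparisons with the control of the set. C3 is lowest in all 4, from -3.16 to -0.95, and the 6 neighbours lie between -0.99 and 0.94.

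At the other loci, C1R was 2.09-fold lower in *ΔSCC4*. None of the 6 nearest tested genes around C1S and C1R passed there in the main fit, which has no replicate block. Their differences were between -0.45 and 0.29. C1RL, which encodes the C1r-like protease and overlaps C1R by 3.0 kb on the same strand, was at 0.25 ± 0.135 in *ΔSCC4*. It passed, as higher, with the replicate number as a block (0.252), a fit in which 5754 genes passed instead of 1186. In *ΔWAPL* 1.14, where C1R was higher, 2 of these 6 rose, C1RL by 0.28 and CLSTN3 by 0.31 (adjusted p = 1.41e-02, lost without *ΔWAPL* 1.14 replicate 1). Around CD55 and CD46, PFKFB2, 240.5 kb away, fell by 1.16 on the log2 scale in *ΔSCC4* (adjusted p = 1.65e-02), and PLXNA2, 226.7 kb away, rose by 0.85 (adjusted p = 2.10e-02). These calls, like that of SH2D3A in *ΔSCC4*, were lost without control A replicate 2 and without *ΔSCC4* replicate 2. Over all alternatives the values were between -1.47 and -0.93 for PFKFB2 and between 0.73 and 1.0 for PLXNA2. In *ΔWAPL* 1.14, where CD55 was lower, PFKFB2 fell by 0.66 (adjusted p = 2.33e-03). PLXNA2 fell there by 0.87 (adjusted p = 1.29e-02, lost without *ΔWAPL* 1.14 replicate 1 or 2). In the double deletion CD55 did not pass, but PFKFB2 rose by 1.438 (adjusted p = 7.17e-04). PLXNA2 was at -0.825 (adjusted p = 3.31e-02, lost with DESeq2 and without control A replicate 3 or any one double-deletion sample). Against *ΔWAPL* 3.3, where CD55 did not pass either, PFKFB2 rose by 0.83 (adjusted p = 3.52e-03). Next to the nearly silent CFI, the growth factor gene EGF, 110.7 kb away, rose in all 4 comparisons with a control, by 1.79 in *ΔWAPL* 3.3 (adjusted p = 2.98e-05), 2.62 in *ΔWAPL* 1.14 (adjusted p = 1.64e-05), 1.08 in *ΔSCC4* (adjusted p = 1.03e-02) and 1.15 in the double deletion (adjusted p = 5.36e-03).

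The rest of the pathway was mostly silent in HAP1 cells. Of 51 other complement genes, 21 had 0 reads in all samples and 8 were kept over all 18 samples. Of those tested, 1 rose and 1 fell among 6 in *ΔWAPL* 3.3, and 2 rose and 2 fell among 7 in *ΔWAPL* 1.14. In *ΔSCC4* 2 rose among 6. In the double deletion 1 rose and 1 fell among 6, with COLEC11 left out of the count. The share of all genes passing was 8.07%, 20.1%, 9.49% and 7.95% in these comparisons, in the same order. A block for the replicate number takes *ΔSCC4* and control A as paired. With it 3 rose and 1 fell among the 6 in *ΔSCC4* (CSMD1, CLU and C1RL, and C1QBP). In that fit 5754 genes passed instead of 1186, and nothing is read from these counts. CSMD1, a membrane protein known to inhibit complement, was at 6.22 ± 0.051 CPM in control A, 25.4 ± 1.6 in *ΔWAPL* 3.3, 18.9 ± 0.779 in *ΔSCC4* and 11.4 ± 1.05 in the double deletion. In set B it was at 7.43 ± 0.141 CPM in control B and 35.5 ± 1.58 in *ΔWAPL* 1.14. It rose by 2.01 on the log2 scale in *ΔWAPL* 3.3 (adjusted p = 7.66e-07), by 2.25 in *ΔWAPL* 1.14 (adjusted p = 5.50e-06), by 1.58 in *ΔSCC4* (adjusted p = 6.14e-05) and by 0.86 in the double deletion (adjusted p = 2.50e-03). The order of its 6 group means was that of C3 reversed, from control A, the lowest, to *ΔWAPL* 1.14, the highest.

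C5, the component cleaved to start the terminal pathway, fell by 1.23 on the log2 scale in *ΔWAPL* 3.3 (2.15 ± 0.684 CPM in control A and 0.907 ± 0.207 CPM, adjusted p = 1.56e-02) and by 1.58 in the double deletion (0.72 ± 0.131 CPM, adjusted p = 8.29e-03). The first call was lost without control A replicate 2 or 3 or *ΔWAPL* 3.3 replicate 2, the second without *ΔWAPL*/*ΔSCC4* replicate 1. In *ΔWAPL* 1.14 C5 was instead 0.47 higher on the log2 scale, which did not pass. Its level was 1.775 ± 0.624 CPM in control B and 2.519 ± 0.12 CPM in *ΔWAPL* 1.14. CLU, clusterin, a soluble inhibitor of the membrane attack complex, fell by 0.66 in *ΔWAPL* 1.14 (adjusted p = 5.04e-04) and rose by 0.81 in *ΔSCC4* (64.0 ± 8.51 CPM in control A and 112.8 ± 15.6 CPM, adjusted p = 7.84e-03), the latter lost without control A replicate 2. In *ΔWAPL* 1.14 C1RL rose by 0.28 (adjusted p = 4.71e-02) and C1QBP, which binds C1q, fell by 0.28 (adjusted p = 4.77e-02), and both calls were lost without control B replicate 1 or any one *ΔWAPL* 1.14 sample, in the fit over all 18 samples and with at least 10 counts in every sample. The C1RL call was also lost with DESeq2 and with the replicate block. COLEC11, a lectin that starts the lectin pathway, had 24 to 28 reads in each double-deletion sample and at most 12 in any other sample, so that it passed the filter only through the group where it was high, and it is left out of the counts and given no test.

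Of 16 genes known to act on complement transcription, among them the NF-κB subunits, the C/EBP factors and receptors for interleukins and interferon, 15 were tested. The median log2 difference of the 15 was -0.02 in *ΔWAPL* 3.3, 0.05 in the double deletion and -0.01 in the double deletion against *ΔWAPL* 3.3. In *ΔSCC4* 1 of the 15 passed, beside 9.49% of all genes. With the replicate block 7 of the 15 did (4 higher and 3 lower), a fit in which 5754 genes passed instead of 1186. Nothing is read from these counts. CEBPB, a transcription factor of the acute-phase response, rose by 0.95 on the log2 scale in *ΔWAPL* 3.3 (adjusted p = 4.58e-03). In the double deletion it rose by 0.75 (adjusted p = 1.40e-02, lost without control A replicate 2 or *ΔWAPL*/*ΔSCC4* replicate 1). In *ΔWAPL* 1.14 CEBPB did not pass, at 8.123 ± 1.005 CPM against 7.809 ± 0.743 CPM in control B. IL6R, the interleukin-6 receptor, was at 5.34 ± 0.899 CPM in control A, 4.18 ± 0.827 in *ΔWAPL* 3.3, 2.03 ± 0.512 in *ΔSCC4* and 7.64 ± 0.846 in the double deletion. It fell by 1.44 in *ΔSCC4* (adjusted p = 2.91e-03) and by 0.47 in *ΔWAPL* 1.14 (adjusted p = 1.67e-02, lost with DESeq2, in the fit over all 18 samples, and without control B replicate 1 or *ΔWAPL* 1.14 replicate 2 or 3). In *ΔWAPL* 1.14 NFKB2 fell by 0.74 (adjusted p = 8.15e-04) and NFKB1 rose by 0.33 (adjusted p = 2.40e-02), the latter lost without control B replicate 1 or any one *ΔWAPL* 1.14 sample. In the double deletion against *ΔWAPL* 3.3, where 10.6% of all genes passed in either direction, 3 of the 15 rose and none fell. They were IL6R by 0.85 (adjusted p = 3.58e-03), NFKB2 by 0.52 (adjusted p = 2.01e-02) and STAT3 by 0.42 (adjusted p = 1.74e-02), the last 2 lost without *ΔWAPL* 3.3 replicate 2 or *ΔWAPL*/*ΔSCC4* replicate 1 or 3.

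Of 11558 genes with enough reads, the 5 whose log2 CPM followed C3 most closely over the 18 samples were QPRT (Pearson r 0.959, Spearman's rho 0.915), NUAK2 (0.936 and 0.911), PTPRU (0.935 and 0.907), POF1B (0.929 and 0.899) and TIMP3 (0.926 and 0.847). The 18 samples share 6 groups and 2 sets, so the values describe likeness over these groups. QPRT, an enzyme of NAD synthesis from quinolinate, was at 35.0 ± 4.43 CPM in control A, 9.93 ± 1.02 in *ΔWAPL* 3.3, 18.1 ± 1.64 in *ΔSCC4* and 21.5 ± 1.56 in the double deletion. POF1B had the widest range on the log2 scale. It was at 9.51 ± 1.29 CPM in control A, 0.417 ± 0.074 in *ΔWAPL* 3.3, 5.9 ± 0.8 in the double deletion and 0.312 ± 0.137 in *ΔWAPL* 1.14. In control B POF1B was at 3.95 ± 1.87 CPM, a mean below that of the double deletion, unlike the order of C3. For CFI no such list is given, as it had at most 3 reads in a sample.

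**Figure D5:**
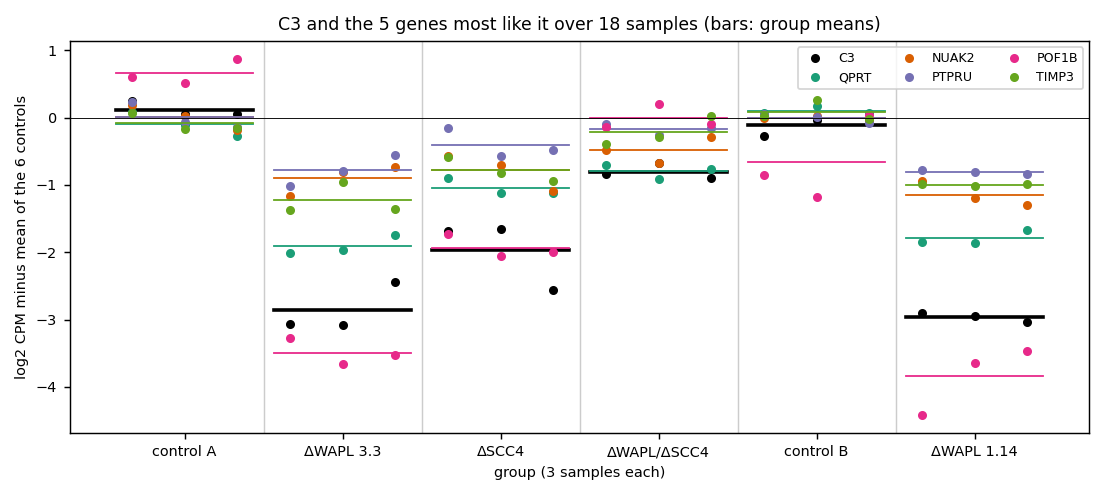
Log2 CPM (prior count 2) of C3 and the 5 genes most like it, each minus its own mean over the 6 control samples, in 18 samples. Points are samples, and horizontal bars group means. All 6 genes are lower in both *ΔWAPL* clones than in the controls, C3 and POF1B most.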

How the data were processed

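Polyadenylated RNA of HAP1 cells was sequenced from strand-specific libraries in 18 samples, 3 in each of 6 groups, grouped by the sample titles. The authors aligned the reads with TopHat (version 2.1.1 in the study's methods and TopHat2 2.0.9 in the submitters' processing notes, which also name HTSeq, DESeq2 1.10.1 and hg19) and deposited raw counts of reads per gene. The annotation they counted on is not given in the sources used here. The HTSeq lines that name no gene were left out of library sizes and tests. Reads with no feature were 4.795% to 6.093% and ambiguous reads 1.713% to 2.059% of uniquely aligned reads. Overlapping genes such as C3 and GPR108 or C1R and C1RL lose or share such reads.

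Symbols, positions and exon lengths came from GENCODE 44 on GRCh37, which held 96.6% of the 20329 gene identifiers. CPM values were scaled with TMM factors over all 18 samples, with a prior count of 2 for log2 CPM. Each comparison used edgeR 4.0.16 in R 4.3.3 (filterByExpr with a count minimum of 10, TMM, quasi-likelihood test, Benjamini-Hochberg adjustment over all genes tested, threshold 0.05) on the samples of the groups compared. A standard error is the log2 difference divided by the square root of F. The scripts were tested on simulated data. Alternatives tried were DESeq2 1.42.0 in place of edgeR, DESeq2's size factors in place of TMM, all genes unfiltered, a stricter minimum of 10 counts per sample, all 18 samples fitted together, a block for the replicate number, and the omission of each sample in turn. Chi-square values per degree of freedom between replicates were 1.606 to 51.995, so no library was counted as a duplicate. Same-numbered samples deviated together for *ΔSCC4* and control A (correlations 0.675, 0.115 and 0.615), which met the rule for paired samples. No other comparison of 2 groups met this rule, and where the pairing comes from is not stated. The main fits had no replicate block, so the *ΔSCC4* differences, standard errors and 1186 genes passing ignore this pairing. The fit with the block, in which 5754 genes passed, was an alternative only.

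The 8 genes, the pathway and marker lists, and the tests were chosen with earlier results of these data known. Named besides the 8 genes are the list genes past the threshold, the 5 genes most like C3 (among genes averaging 1 or more on the log2 CPM scale), the 3 nearest tested genes on each side of each locus, and WAPL and MAU2. Intervals for pooled counts and the limit of 3 counts cover counting error only, since the reads carry no molecular identifiers.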

Additional observations from a re-analysis of the deposited data

Results flagged for a closer look

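The log2 change with the SCC4 deletion differed between cells with WAPL and *ΔWAPL* 3.3 cells, by an interaction term in edgeR's quasi-likelihood test, for C3, CD55, IL6R, NFKB2 and CSMD1. The difference was 4.34 for C3 and 0.771 for CD55 (descriptions, since both genes were chosen with these values in view). It was 2.303 for IL6R (adjusted p = 6.72e-05), 0.808 for NFKB2 (adjusted p = 1.96e-02) and -2.74 for CSMD1 (adjusted p = 4.31e-08). IL6R, NFKB2 and CSMD1 come from lists that were also chosen with earlier results of these data known. Their p-values are thus not free of that choice. The IL6R and CSMD1 differences passed without any one sample, as did that of C3, which is again a description only. NFKB2 was lost without *ΔWAPL* 3.3 replicate 2, *ΔSCC4* replicate 2 or *ΔWAPL*/*ΔSCC4* replicate 1. COLEC11 gave 2.78, a value with no test, since it met the low-count filter only through the double deletion, where it was high.

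The log2 change in *ΔWAPL* 3.3 differed from that in *ΔWAPL* 1.14 by -1.69 for C5 (adjusted p = 4.28e-02) and by 0.915 for CEBPB (adjusted p = 4.28e-02), tested the same way. C5 passed in 2 and CEBPB in 4 of the 12 fits that left out a sample, and neither passed with the replicate number as a block or with at least 10 counts in every sample. Clone and set cannot be told apart in these values, and C5 and CEBPB come from lists chosen in the same way.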

How the results depend on the processing

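Of the log2 differences of the 6 tested complement genes under all alternatives, 637 moved by less than the spread between replicates and 7 by more, and the direction of every called one was kept. The largest shift of C3 in *ΔSCC4* came without its replicate 3, at -1.85. With at least 10 counts in every sample C3 could not be fitted where *ΔWAPL* 3.3 took part, as 1 sample held 9. The number of genes passing moved with the samples used and with the replicate block. In one fit over all 18 samples it was 1753 for *ΔWAPL* 3.3, 2556 for *ΔSCC4* and 408 between the controls, against 1008, 1186 and 80. With the replicate block it was 5754 for *ΔSCC4*, 162 between the controls and 173 between the clones (339 without). DESeq2 gave 168 and no filter 127 between the controls, and at least 10 counts in every sample gave 211 between the clones. The block changed the calls of CD46 in *ΔSCC4* and of CD55 for the difference with WAPL status, and no other call of the 6 genes. Leaving out one sample gave 686 to 1180 genes for *ΔWAPL* 3.3, 1415 (without *ΔWAPL* 1.14 replicate 1) to 4820 (without control B replicate 3) for *ΔWAPL* 1.14, 662 (without control A replicate 2) to 2317 (without control A replicate 1) for *ΔSCC4*, 586 (without *ΔWAPL*/*ΔSCC4* replicate 1) to 1552 (without control A replicate 1) for the double deletion, 861 (without *ΔWAPL* 3.3 replicate 2) to 1805 for the double deletion against *ΔWAPL* 3.3, 0 to 107 between the controls and 218 (without *ΔWAPL* 1.14 replicate 1) to 372 between the clones. The 0 came from edgeR without control A replicate 2, with 857 genes at an unadjusted p under 0.05. The cause of these shifts was not tested. Chosen after the data were seen, leaving out control B replicate 3 took the lower bound for SERPING1 from 9.22-fold to 5.91-fold. C3, with as few as 9 reads, C1S, SERPING1 and CFI are limited by depth.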
